A study of Mus musculus with 22 samples.

Results

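The transcripts described here are 10 genes known to be induced by glucocorticoids, chosen by name from the 54838 Ensembl genes of the count table: Fkbp5, Tsc22d3, Sgk1, Klf9, Dusp1, Zfp36, Zbtb16, Cdkn1a, Errfi1 and Pdk4. They were followed in 22 bulk RNA-seq libraries from the small intestine of adult female FVB/N mice. GRWT mice carry the wild-type glucocorticoid receptor (GR), and GRDim mice carry a point-mutant receptor that dimerises poorly in every tissue and were bred from heterozygous intercrosses. For 7 days their drinking water was either plain or held 25 mM ZnSO4, and the 4 groups comprise 5 (GRWT, water), 5 (GRWT, zinc), 6 (GRDim, water) and 6 (GRDim, zinc) libraries. The series' design text mentions dexamethasone, a synthetic glucocorticoid, but no sample label names it, and the study describes this experiment with plain and zinc water only. That text also says the libraries were sequenced in 2 sets. Codes in the sample titles hold a 1 for every library labelled ileum and a 2 for every library labelled IEC, but no label says that these digits mark the sets. The labels do not tie replicates to separate animals, and p-values therefore measure the spread between these libraries.

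Glucocorticoids enter the cell and bind GR, which moves to the nucleus and binds DNA as a dimer at palindromic glucocorticoid response elements, where it raises transcription. Monomeric GR can also restrain other transcription factors, and the GRDim mutation separates these modes in part. In the intestine the hormone is known for control of sodium uptake, epithelial maturation and inflammation. Among the 10 genes, Fkbp5 encodes a co-chaperone that lowers the affinity of GR for its hormone, and Tsc22d3 encodes GILZ, an inhibitor of inflammatory transcription factors. Dusp1 encodes a phosphatase that switches off MAP kinases, and Zfp36 encodes tristetraprolin, which marks cytokine mRNAs for decay. Sgk1 encodes a kinase that promotes sodium transport. Klf9 and Zbtb16 encode zinc-finger transcription factors. Cdkn1a encodes the cell-cycle inhibitor p21, Errfi1 encodes a feedback inhibitor of the EGF receptor, and Pdk4 encodes a kinase that holds glucose carbon back from oxidation.

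A search of promoters for the response element separated Sgk1 from the other members, and its windows that hold an arm of the element are shown for that reason. The RefSeq promoter windows of build GRCm38.p6 run from 250 bases before to 50 bases after each start, and 9 of the 10 members had 18 of them in all. The complete palindrome, AGAACA, any 3 bases, then TGTTCT, was read on both strands and is its own reverse complement. It was found in 3 of 32851 windows (0.00913%), of which 1 belongs to Sgk1. A single 6-base arm, AGAACA or TGTTCT, which every complete palindrome also contains, was found in 6233 windows (19%) and in 4 of the 18 member windows. These were 3 of the 6 windows of Sgk1 and 1 of the 3 windows of Tsc22d3. For the 3 Sgk1 windows with an arm, the part before the start is printed 5′ to 3′ on the + strand, with the arms in capitals. The complete palindrome lies in the window at chr10:21993640-21993889, with arms at -242, -189 and -180 bases from the start. The window at chr10:21881934-21882183 holds an arm at -195, and the window at chr10:21991973-21992222 holds an arm at -13.
Sgk1 start after chr10:21993640-21993889: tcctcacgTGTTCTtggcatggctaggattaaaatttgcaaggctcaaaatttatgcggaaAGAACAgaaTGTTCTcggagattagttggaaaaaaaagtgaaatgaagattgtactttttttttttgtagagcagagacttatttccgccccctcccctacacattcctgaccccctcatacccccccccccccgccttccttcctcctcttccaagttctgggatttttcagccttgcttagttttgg
Sgk1 start after chr10:21881934-21882183: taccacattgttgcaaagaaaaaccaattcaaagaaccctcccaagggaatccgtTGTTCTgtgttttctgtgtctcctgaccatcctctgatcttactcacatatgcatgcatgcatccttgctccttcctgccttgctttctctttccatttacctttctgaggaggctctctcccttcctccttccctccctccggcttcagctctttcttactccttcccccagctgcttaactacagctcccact
Sgk1 start after chr10:21991973-21992222: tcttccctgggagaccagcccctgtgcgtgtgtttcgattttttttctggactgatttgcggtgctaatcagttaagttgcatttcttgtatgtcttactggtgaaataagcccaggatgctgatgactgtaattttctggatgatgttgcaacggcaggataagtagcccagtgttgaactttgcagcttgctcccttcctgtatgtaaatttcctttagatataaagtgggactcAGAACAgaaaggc
The arm of Tsc22d3 lies at -185 in a window that annotated exons partly cover. These matches describe letters in short windows and say nothing of where GR binds, since many of its sites lie further away.

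Before the values, the libraries had to be divided, since their content of smooth muscle did not follow the labels. Myh11, smooth-muscle myosin, ranged from 298.3 to 463.2 CPM (counts scaled to library size) in 12 muscle-rich libraries and from 3.218 to 20.53 CPM in 10 muscle-poor ones. Of the 10 libraries labelled IEC, for scraped intestinal epithelial cells, 7 were muscle-rich, and of the 12 labelled ileum, for whole ileum, 7 were muscle-poor. Library totals ran from 13149951 to 15620744 counts, so that a count of 3, the floor used here, corresponds to 0.192 to 0.228 CPM and covers counting error only. The library GRWT zinc ileum replicate 3 stood apart, with a summed level of the ileal marker genes of 30.1 CPM against 4771 to 13250 CPM in the other 21, and muscle-poor results are given with and without it. Mt1, the zinc-induced metallothionein, averaged 2079 and 1398 CPM in muscle-rich GRWT and GRDim mice on zinc and 44.89 and 67.07 CPM on water. Levels below are CPM after TMM normalisation, and a change was called when edgeR's quasi-likelihood test, run on each class of libraries alone, gave an adjusted p under 0.05 over all genes tested.

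In the muscle-rich libraries the GRWT mice on water gave 3 libraries (IEC replicates 4 and 5 and ileum replicate 1), as did GRWT mice on zinc under the same labels and numbers. GRDim mice on water gave IEC replicates 4, 5 and 6, and GRDim mice on zinc gave ileum replicates 1, 2 and 3. Values of single libraries follow in that order. Within GRDim mice, zinc and the tissue label therefore cannot be told apart in these libraries. The muscle-poor GRDim libraries hold the opposite arrangement, with ileum on water and IEC on zinc.

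In the muscle-rich libraries on normal water, the members were lower in GRDim than in GRWT mice with 1 exception. Of the 10, 9 passed the test and all 9 were lower in GRDim mice, where the background was 18.9% of genes called lower and 38.7% called in either direction of 15947 tested. The median log2 difference was -0.50 over the members and -0.003 over all genes. The fall was 3.9-fold for Sgk1 and 2.32-fold for Pdk4, and lay between 1.28- and 1.79-fold for the other 7. The exception, Cdkn1a, was not past the threshold. The 9 genes that passed were also the 9 members whose 3 libraries per group did not overlap, as was so for 53.8% of all genes tested. In bulk RNA, fewer cells of a type and less RNA per cell cannot be told apart.

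Sgk1 showed the widest separation. Its levels were 262.3, 294.9 and 301.6 CPM in GRWT mice on water, 368.8, 237.5 and 275.9 CPM in GRWT mice on zinc, 66.15, 62.31 and 90.06 CPM in GRDim mice on water and 274.8, 227.6 and 173.8 CPM in GRDim mice on zinc. The 3 GRDim water libraries were the lowest of the 12 and lay far below all others. From 286.2 ± 21.02 CPM (SD, n = 3) in GRWT mice to 72.84 ± 15.04 CPM (n = 3) in GRDim mice, the log2 difference on water was -1.96 ± 0.22 (SE, adjusted p = 0.000165). No single library decided it, as Sgk1 passed with each of the 12 left out in turn, and under 10 of 11 other settings. The exception was the tissue label as covariate over 22 libraries (-1.23, adjusted p = 0.09).

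Of the genes that feed back on the hormone signal and on inflammation, Tsc22d3 had the lowest adjusted p for genotype on water. It read 45.2, 45.94 and 47.04 CPM in GRWT mice on water, 40.37, 39.37 and 42.52 CPM in GRWT mice on zinc, 29.85, 23.96 and 34.83 CPM in GRDim mice on water and 36.62, 35.36 and 35.75 CPM in GRDim mice on zinc. All GRDim libraries lay below all GRWT libraries, on either water. The log2 difference on water was -0.63 ± 0.10 (adjusted p = 0.000139). This call was kept under 7 of 11 other settings, and it went down to -0.31 (adjusted p = 0.654) with the tissue label as covariate over 22 libraries. Fkbp5 read 70, 67.48 and 90.06 CPM in GRWT mice on water and 61.2, 48.78 and 56.52 CPM in GRDim mice on water, with -0.44 ± 0.12 (adjusted p = 0.0128). The Fkbp5 call was kept under 4 of 11 other settings, and was lost without a filter on low counts (adjusted p = 0.0513) and in every fit over both muscle classes, down to -0.17 (adjusted p = 0.862) with the tissue label as covariate over 22 libraries. On zinc it read 62.32, 66.89 and 61.94 CPM in GRWT and 61.2, 52.97 and 65.74 CPM in GRDim mice, where the groups overlapped. The GRWT libraries on zinc all lay below those on water for this co-chaperone gene, a difference that did not pass (-0.25 ± 0.12, adjusted p = 0.457).

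Dusp1 and Zfp36, which limit MAP kinase and cytokine signals, were also lower in GRDim mice on water. Dusp1 read 12.19, 13.05 and 11.97 CPM in GRWT and 10.02, 8.647 and 8.299 CPM in GRDim mice on water (-0.46 ± 0.14, adjusted p = 0.016). On zinc it read 14.64, 9.447 and 10.74 CPM in GRWT and 10.37, 9.937 and 10.23 CPM in GRDim mice, which overlapped. Zfp36 read 117.3, 119.7 and 107.3 CPM in GRWT and 100.4, 88.71 and 78.61 CPM in GRDim mice on water (-0.35 ± 0.11, adjusted p = 0.0196). On zinc Zfp36 read 135.6, 114.8 and 108.4 CPM in GRWT and 124, 113.2 and 97.27 CPM in GRDim mice, again with overlap. Neither call survived every omission of a single library, and the calls of Dusp1 and Zfp36 were kept under 8 and 5 of 11 other settings. That of Dusp1 was lost without GRDim water IEC replicate 5 (adjusted p = 0.0547) or 6 (0.0672) or GRWT water IEC replicate 5 (0.0556). That of Zfp36 was lost without GRDim water IEC replicate 5 (0.056) or 6 (0.0756) or GRWT water IEC replicate 4 (0.0567) or 5 (0.0692). Exons of Dusp1 overlap those of Ergic1 by 11 bases and exons of Zfp36 overlap the antisense gene Gm44710 by 125 bases (3.6% of its exon length), and the strand setting of the counting is not given in the sources used here.

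The 2 transcription factor genes differed in level and in firmness. Klf9 read 51.15, 51.99 and 49.63 CPM in GRWT mice on water and 37.85, 38.81 and 36.7 CPM in GRDim mice on water, both tight groups (-0.42 ± 0.08, adjusted p = 0.000498). On zinc it read 50.03, 47.99 and 43.22 CPM in GRWT and 42.33, 44 and 35.36 CPM in GRDim mice, which overlapped (-0.22 ± 0.08, adjusted p = 0.0573). Zbtb16 was the least abundant member and read 1.561, 2.379 and 1.747 CPM in GRWT and 0.7805, 1.122 and 1.227 CPM in GRDim mice on water, from counts of 7 to 35 over the 12 libraries. Its difference on water was -0.84 ± 0.31 (adjusted p = 0.0447). It was lost when any of 6 libraries was left out: the 3 GRDim water IEC replicates (4, adjusted p = 0.156, 5, 0.0806, and 6, 0.0585), GRDim zinc ileum replicate 2 (0.0546), GRWT water IEC replicate 5 (0.175) and GRWT water ileum replicate 1 (0.0679). On zinc Zbtb16 read 1.739, 1.172 and 0.7718 CPM in GRWT and 0.4874, 0.7743 and 0.7772 CPM in GRDim mice. The calls of Klf9 and Zbtb16 on water were kept under 9 and 7 of 11 other settings. Zbtb16 was the only member with its lowest mean in GRDim mice on zinc.

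Of Cdkn1a and Errfi1, which restrain growth, only Errfi1 passed for genotype on water. Cdkn1a read 197, 177.8 and 205 CPM in GRWT and 213.6, 207.9 and 204.6 CPM in GRDim mice on water, overlapping groups with a log2 difference of +0.12 ± 0.07 (adjusted p = 0.16). On zinc it read 234.2, 242 and 215.5 CPM in GRWT and 248.3, 248.3 and 222.9 CPM in GRDim mice, so that every library on zinc lay above every library on water. Zinc and water groups did not overlap for 14.4% of all genes tested in GRWT and 31.8% in GRDim mice. The changes with zinc, +0.26 ± 0.07 for GRWT (adjusted p = 0.12) and +0.19 ± 0.07 for GRDim libraries (adjusted p = 0.0877), did not pass with edgeR, while DESeq2 gave the former an adjusted p of 0.0384. Exons of Cdkn1a overlap those of an unnamed locus on the other strand by 273 bases (7.68%). Errfi1 read 76.84, 86.72 and 78.09 CPM in GRWT and 58.6, 52.81 and 53.59 CPM in GRDim mice on water (-0.54 ± 0.12, adjusted p = 0.00376), a call kept under 10 of 11 other settings. On zinc Errfi1 read 104.4, 109.2 and 73.9 CPM in GRWT and 81.39, 80.14 and 84.19 CPM in GRDim mice. The GRDim water libraries were again the lowest of the 12.

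Pdk4, which responds to both glucocorticoids and fasting, was lower in GRDim mice on both waters in the muscle-rich libraries. It read 5.883, 4.417 and 3.235 CPM in GRWT mice on water, 6.778, 3.724 and 4.052 CPM in GRWT mice on zinc, 2.276, 1.716 and 1.812 CPM in GRDim mice on water and 2.855, 1.742 and 2.591 CPM in GRDim mice on zinc. All 6 GRDim libraries lay below all 6 GRWT libraries. The log2 difference was -1.21 ± 0.28 on water (adjusted p = 0.00301) and -1.03 ± 0.27 on zinc (adjusted p = 0.0162). The former passed with each library left out but under 5 of 11 other settings, and was lost in every fit over both muscle classes (-0.84 to -1.29, adjusted p = 0.0582 to 0.656). The latter was lost without GRDim zinc ileum replicate 2 (0.073) or GRWT zinc IEC replicate 4 (0.0903), and with the tissue label as covariate within the class (-0.68, 0.143). It was kept under 6 of 11 other settings, over which it ran from -4.28 to -0.40 with an adjusted p of up to 0.983.

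**Figure D1:**
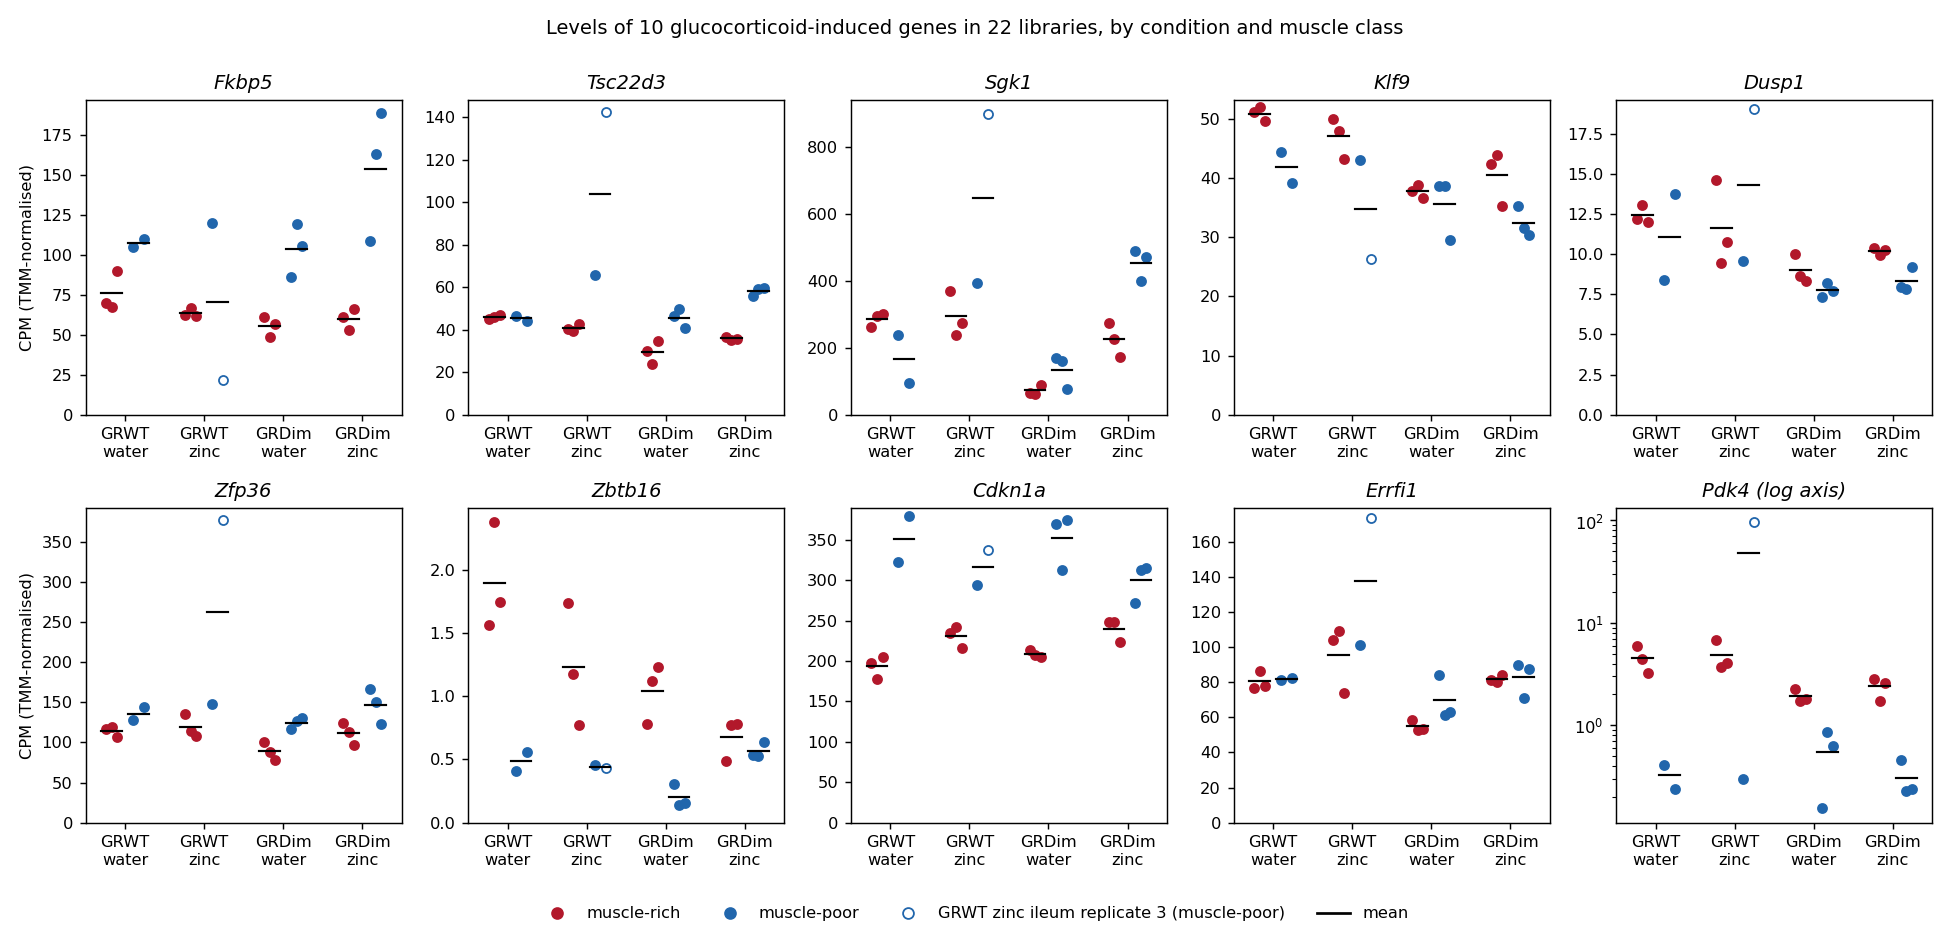
Levels of the 10 genes (vertical axes, TMM-normalised CPM, from 0 except for Pdk4, which has a log axis) in the 4 conditions, with 1 point per library, red for muscle-rich and blue for muscle-poor, and a black line at each mean. The open blue point is GRWT zinc ileum replicate 3, which reads 900.8 CPM for Sgk1 and 96.61 CPM for Pdk4, and the red GRDim water points of Sgk1 lie between 62.31 and 90.06 CPM.

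Between genes, levels were compared per kilobase of exon. In muscle-rich GRWT mice on water, Sgk1 (58.4 ± 4.29 CPM per kb, SD, n = 3) and Cdkn1a (54.4 ± 3.93) were the most abundant, and their libraries overlapped. Zfp36 (33.1 ± 1.9) and Errfi1 (22.5 ± 1.5) followed, each apart from its neighbours. Tsc22d3 (10.6 ± 0.213) and Klf9 (10.6 ± 0.249) overlapped, and then came Fkbp5 (8.01 ± 1.31), Dusp1 (3.75 ± 0.172), Pdk4 (1.29 ± 0.378) and Zbtb16 (0.359 ± 0.0811). In GRDim mice on water, Sgk1 dropped to 14.9 ± 3.07 CPM per kb, beside Errfi1 at 15.4 ± 0.877, while Cdkn1a stood at 58.7 ± 1.29.

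In the muscle-rich GRDim libraries 2 members were higher on zinc, where the zinc libraries are also those labelled ileum. Sgk1 and Errfi1 passed and no member was called lower, against a background of 4.46% of genes called higher and 7.7% called in either direction. Sgk1 was 3.07-fold higher, from 72.84 ± 15.04 to 225.4 ± 50.53 CPM (n = 3 each, log2 change +1.62 ± 0.22, adjusted p = 0.00456), and passed with each library left out and under 7 of 11 other settings. With the tissue label as covariate within the class, the change of Sgk1 was +1.61 and no longer passed (adjusted p = 0.074), while Errfi1 did (+0.84, adjusted p = 0.01). The Errfi1 call was kept under 6 of 11 other settings, over which its change was +0.41 to +0.86 with an adjusted p of up to 1. Errfi1 was 1.48-fold higher, from 55 ± 3.143 to 81.91 ± 2.076 CPM (+0.56 ± 0.12, adjusted p = 0.0164). The Errfi1 call was lost without GRDim water IEC replicate 5 (adjusted p = 0.0685) or 6 (0.0642) or GRDim zinc ileum replicate 1 (0.0643) or 2 (0.0584). Without GRDim zinc ileum replicate 3, Zfp36 and Cdkn1a passed as well and the count was 4, where 1513 of 16204 genes were called in either direction. Without GRDim water IEC replicate 6, Tsc22d3 passed (+0.41, adjusted p = 0.0207). With all 12 libraries Tsc22d3 (+0.27 ± 0.10, adjusted p = 0.111) and Zfp36 (+0.31 ± 0.11, adjusted p = 0.1) missed the threshold. The median change was +0.23 over the members and -0.01 over all genes, and the groups did not overlap for 5 members and for 31.8% of all genes.

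For zinc in GRWT mice no member passed with edgeR in the muscle-rich libraries, where 0.383% of genes were called, and 1 member, Cdkn1a, had an unadjusted p under 0.05 (11.5% of all genes did) and passed with DESeq2 (175 of 11789 genes did). The change of Sgk1 was +0.04 ± 0.21 (adjusted p = 0.962) and that of Errfi1 +0.25 ± 0.12 (adjusted p = 0.44). Without GRWT zinc ileum replicate 1, Errfi1 passed (+0.40, adjusted p = 0.0152), among 43 of 16157 genes. The interaction of zinc and genotype tests the contrast of these responses directly, and no member passed it with edgeR, while 0.263% of genes did. Sgk1 (1.58 ± 0.31, adjusted p = 0.0786) and Tsc22d3 (0.44 ± 0.14, adjusted p = 0.155) had an unadjusted p under 0.05, as did 15.5% of all genes, and DESeq2 called Sgk1 among 300 of 14065 genes. Without GRDim zinc ileum replicate 3 the interaction of Sgk1 passed (+1.73, adjusted p = 0.0257), among 346 of 16204 genes. On zinc water the genotypes differed for 1 member, Pdk4, lower in GRDim mice, against 9% of genes called lower and 18.8% in either direction. That count was 4 without GRWT zinc ileum replicate 1, where Klf9, Zbtb16 and Errfi1 also passed and 3027 of 16157 genes were called in either direction. The comparisons share their libraries: GRDim mice on water enter both the genotype and the zinc contrast, so a low value there appears in both with opposite sign.

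**Figure D2:**
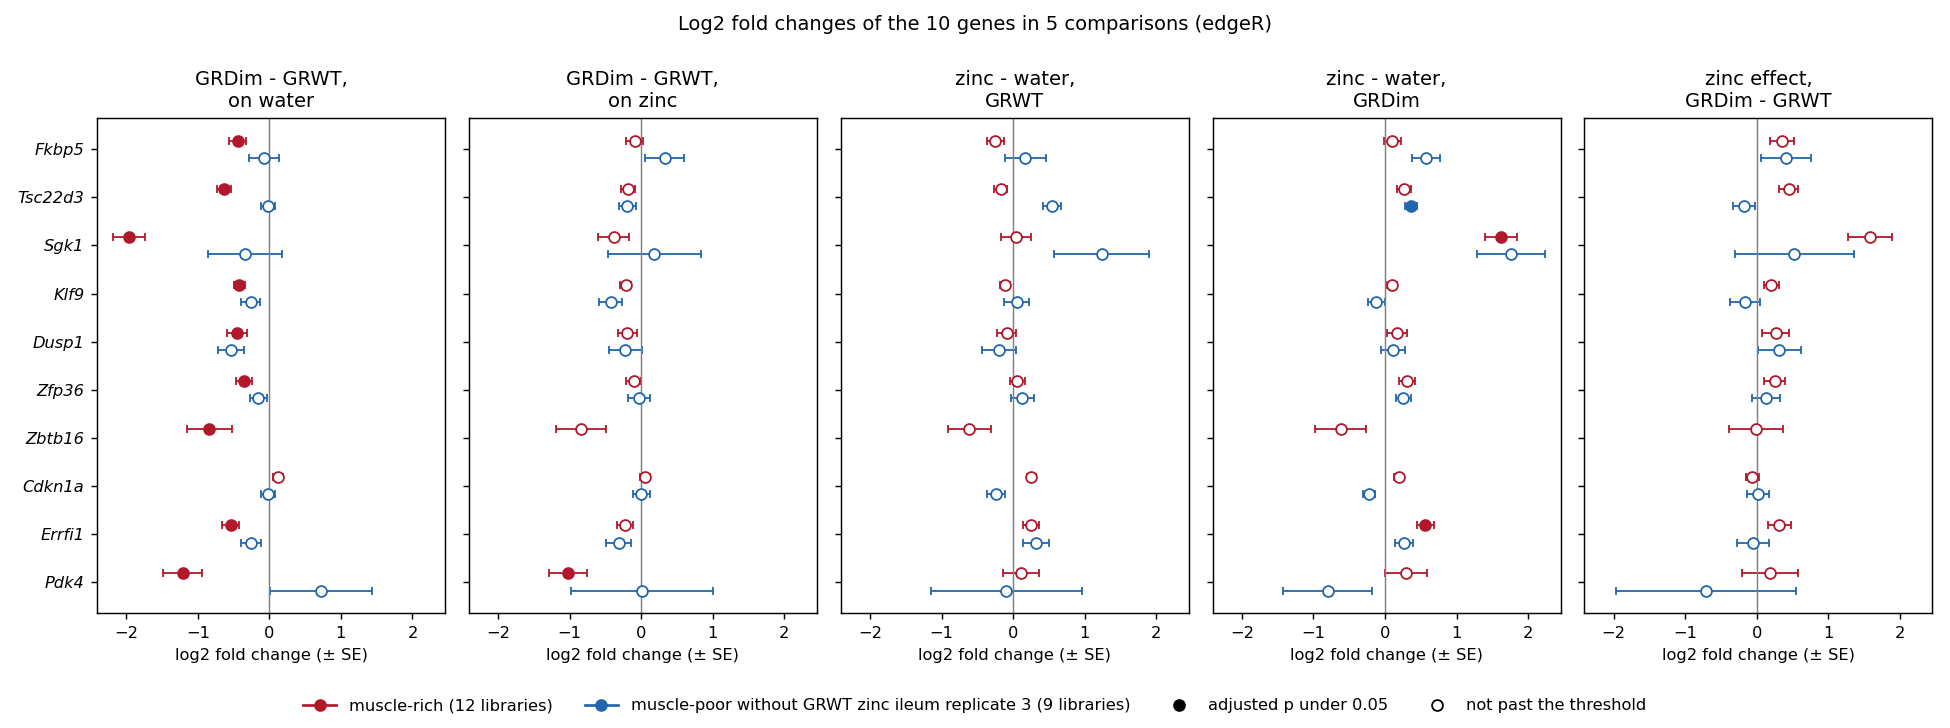
Log2 fold changes (horizontal axes, ± SE, edgeR) of the 10 genes in 5 comparisons, for the 12 muscle-rich libraries in red and the 9 muscle-poor libraries without GRWT zinc ileum replicate 3 in blue, filled where the adjusted p was under 0.05. In the panel of genotype on water 9 red points are filled on the negative side, and in the panel of zinc in GRDim mice both Sgk1 estimates lie well above 0 (+1.62 red, +1.76 blue).

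Markers of other cell types moved between the same muscle-rich groups. From GRWT to GRDim mice on water, the summed level of 8 T cell markers went from 86.12 to 128.8 CPM up to 448.3 to 534.8 CPM, with 8 of 8 called higher. That of 6 plasma and B cell markers went from 1522 to 1937 CPM up to 3808 to 4724 CPM (3 of 6 higher), and that of 6 Paneth cell markers from 7552 to 9093 CPM down to 3020 to 3264 CPM (5 of 6 lower). Smooth-muscle markers went from 2497 to 2716 CPM down to 1923 to 2152 CPM (6 of 10 lower), and epithelial markers from 24500 to 26280 CPM down to 19810 to 21150 CPM (3 higher and 4 lower of 10). Ileal segment markers went from 7776 to 9358 CPM down to 4771 to 6102 CPM (2 of 3 tested lower), and those of enteric neurons and glia from 15.46 to 17.53 CPM down to 7.935 to 12.57 CPM (2 of 6 lower), while 0 of 6 fibroblast markers were called by edgeR. With zinc in GRDim mice T cell markers went to 263.5 to 271.2 CPM (3 of 8 lower) and epithelial markers to 22970 to 25730 CPM (2 of 10 higher), and ileal markers to 5200 to 9234 CPM (1 of 3 higher). No marker of these lists was at 0 in all 12 libraries. Their part in the changes of Sgk1 and the other members was not tested.

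The muscle-poor libraries gave few calls among the members. Here GRWT mice on water gave ileum replicates 2 and 3, GRWT mice on zinc gave ileum replicates 2 and 3, GRDim mice on water gave 2 libraries without a number and ileum replicate 1, and GRDim mice on zinc gave IEC replicates 4, 5 and 6. No member passed edgeR's test on all 10 libraries in any comparison, against backgrounds of 0.0431% of genes called for zinc in GRWT mice, 0.0575% for zinc in GRDim mice, 0.0288% for genotype on water, 0.0575% for genotype on zinc and 0% for the interaction. The members with an unadjusted p under 0.05 numbered 5, 1, 0, 5 and 2 of 9 in that order, beside 17.1%, 7.89%, 5.63%, 22.9% and 4.66% of all genes, and DESeq2 called 3, 1, 0, 3 and 0 members. Over all genes with an adjusted p, DESeq2 called 503 of 13487, 96 of 15009, 58 of 15009, 915 of 12980 and 4 of 26173 in the same order. Without GRWT zinc ileum replicate 3 edgeR called 0, 1, 0, 0 and 0 members, against 0.202%, 5.15%, 3.16%, 0.133% and 0% of 14339 genes, and 1, 5, 1, 1 and 0 members had an unadjusted p under 0.05, beside 9.64%, 22.1%, 18.5%, 9.51% and 4.07% of all genes. In that fit GRWT mice on zinc are 1 library, which was assumed to vary like the other groups. Zbtb16, with counts of 2 to 8, was removed by the filter on low counts, so 9 members were tested.

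Sgk1 was 3.39-fold higher with zinc in the muscle-poor GRDim libraries, and whether it passed depended on the fit. It read 239.2 and 94.99 CPM in GRWT mice on water, 394 and 900.8 CPM in GRWT mice on zinc, 170.2, 159.4 and 75.61 CPM in GRDim mice on water and 489.9, 400.6 and 472.8 CPM in GRDim mice on zinc. Every library on zinc lay above every library on water, and on water the genotypes overlapped. Zinc and water groups did not overlap for 39.5% of all genes tested in GRWT and 26.3% in GRDim mice. From 135.1 ± 51.78 to 454.4 ± 47.42 CPM in GRDim mice (n = 3 each), the log2 change was +1.76 ± 0.45 (adjusted p = 0.378) with all 10 libraries and +1.76 ± 0.47 (adjusted p = 0.107) with 9. DESeq2 called it (adjusted p = 0.0112). In fits over both classes with the muscle class as covariate, zinc in GRDim mice gave +1.70 (adjusted p = 0.0134), and with the tissue label as a further covariate +1.69 (0.0158) over 22 libraries and +1.67 (0.00457) over 21. The muscle-rich response minus the muscle-poor one was -0.12 ± 0.48 (adjusted p = 0.984). In GRWT mice the muscle-poor change of Sgk1 was +1.95 ± 0.55 (adjusted p = 0.228) and, without replicate 3, +1.24 ± 0.67 (adjusted p = 0.633).

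Tsc22d3 was called for zinc in muscle-poor GRDim mice when either of the 2 muscle-poor GRWT zinc libraries was left out, and not with all 10. Without GRWT zinc ileum replicate 2, which leaves the library that stands apart alone in its group, edgeR called 8 members for zinc in GRWT mice, 6 for genotype on zinc and 5 for the interaction, where it called 7080, 7491 and 5702 of all 14492 genes. Tsc22d3 read 46.7 and 44.14 CPM in GRWT mice on water, 65.68 and 142.4 CPM in GRWT mice on zinc, 46.53, 49.59 and 40.79 CPM in GRDim mice on water and 55.88, 59.27 and 59.57 CPM in GRDim mice on zinc. The groups on zinc and water did not overlap in either genotype, as for 39.5% (GRWT) and 26.3% (GRDim) of all genes tested. The genotypes overlapped on water. The change with zinc in GRDim mice was +0.36 ± 0.09 (adjusted p = 0.0286) without replicate 3, with an adjusted p of 0.0296 without replicate 2, and did not pass with 10 (adjusted p = 0.798). For genotype on water Tsc22d3 differed between the classes: the muscle-rich log2 difference minus the muscle-poor one was -0.63 ± 0.14 (21 libraries, adjusted p = 0.00795), where 7.11% of 16868 genes passed. With the odd library included, the same term was -0.63 and did not pass (adjusted p = 0.351). No other member passed that test of the classes, with Sgk1 at -1.65 ± 0.52 (adjusted p = 0.077) and Pdk4 at -1.96 ± 0.71 (adjusted p = 0.102). For zinc in GRDim mice the classes differed for no gene by edgeR (0% of 16868). Zbtb16 and Cdkn1a had an unadjusted p under 0.05, a level at which all genes were not counted in this test. The class test was added after the values had been seen, and DESeq2 was run in it only for Tsc22d3 and genotype on water.

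Of the remaining muscle-poor members, Fkbp5 read 104.6 and 110.1 CPM in GRWT mice on water, 119.7 and 21.63 CPM in GRWT mice on zinc, 86.35, 119.2 and 105.4 CPM in GRDim mice on water and 108.5, 163.2 and 188.5 CPM in GRDim mice on zinc. The lowest value, 21.63 CPM, belongs to GRWT zinc ileum replicate 3, and the GRDim groups overlapped. Dusp1 read 8.386 and 13.73, 9.566 and 19.02, 7.331, 8.181 and 7.687, and 7.961, 7.853 and 9.17 CPM in the same order of groups. Zfp36 read 128.2 and 144.1, 147.7 and 378.1, 116.7, 126.3 and 130, and 166.2, 150.6 and 123.4 CPM. For both genes the highest library was again GRWT zinc ileum replicate 3, and the GRDim water libraries lay close together.

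Klf9 read 44.48 and 39.27 CPM in GRWT mice on water, 43.01 and 26.41 CPM in GRWT mice on zinc, 38.66, 38.63 and 29.49 CPM in GRDim mice on water and 35.37, 31.64 and 30.46 CPM in GRDim mice on zinc. The GRDim libraries on water lay just below the GRWT ones, by -0.26 ± 0.21 (adjusted p = 0.972). Cdkn1a read 322.8 and 379.5, 294.5 and 336.9, 369.1, 312.3 and 374.8, and 271.4, 312.8 and 314.5 CPM in the same order. Errfi1 read 81.14 and 82.61, 101.5 and 173.6, 84.04, 61.61 and 63.38, and 89.87, 71.05 and 87.71 CPM. Neither gene separated the groups of GRDim mice on water and on zinc. Zbtb16 read 0.1423 to 0.6379 CPM over the 10 libraries, 2 of them at or under the floor. Pdk4 read 0.1543 to 0.8537 CPM in 9 libraries, and 4 of the 10 were at or under the floor. Only GRWT zinc ileum replicate 3 had much Pdk4, 96.61 CPM, and the fitted change with zinc in GRWT mice went from +7.18 ± 2.00 with it to -0.09 ± 1.05 without it. The T cell marker sums were 331 to 526.1 CPM in muscle-poor GRDim mice on water and 189.6 to 289.6 CPM on zinc (edgeR called 0 of 8 with 10 or 9 libraries, where 4 and 8 had an unadjusted p under 0.05). With 9 libraries edgeR called 1 of 6 plasma and B cell markers lower, 1 of 10 epithelial markers higher and 1 of 6 Paneth cell markers higher in the same comparison. The part of these cells in the values was not tested.

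**Figure D3:**
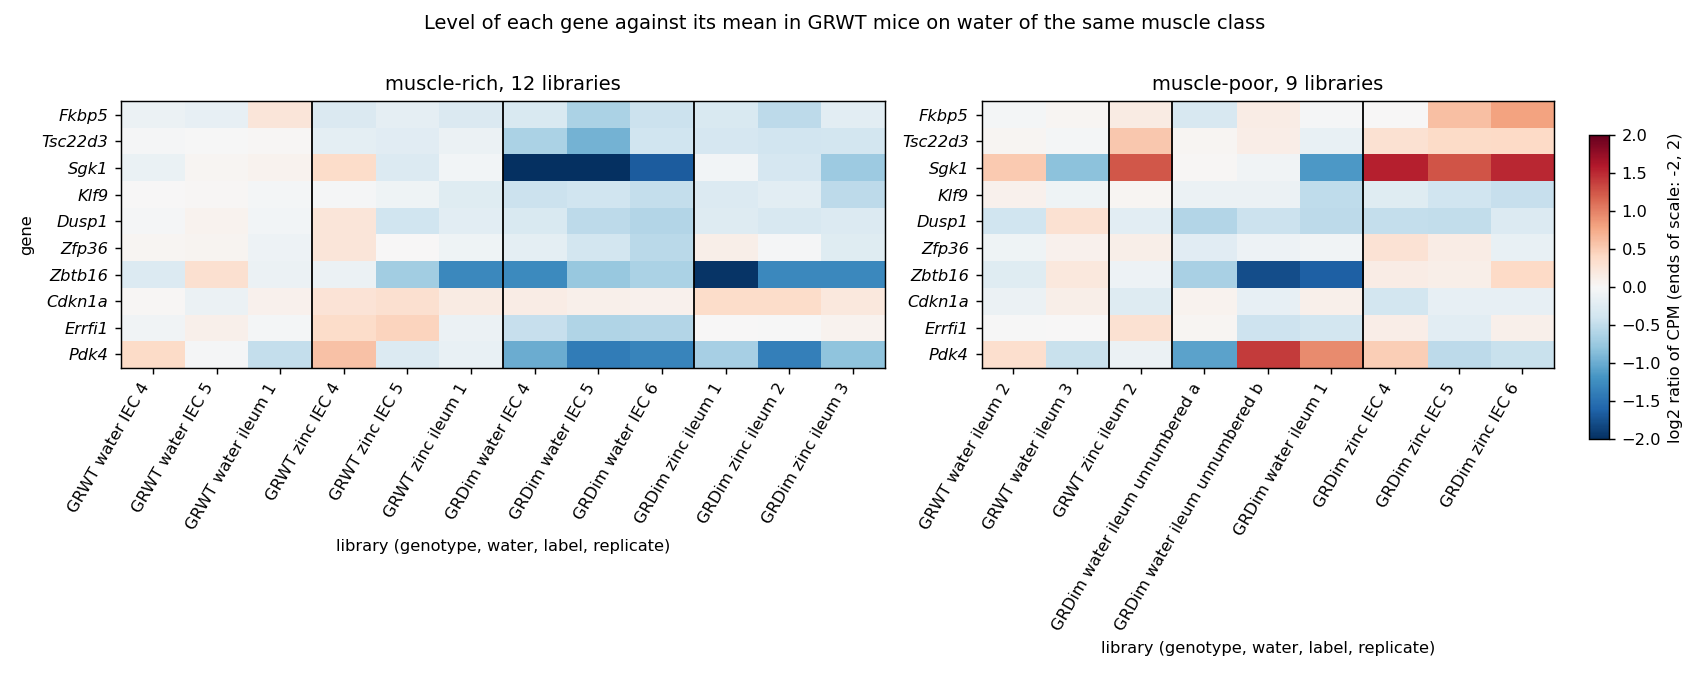
Level of each gene in each library as the log2 ratio of its CPM to the mean of GRWT mice on water of the same muscle class (colour, blue lower and red higher, scale ends at -2 and 2), for 12 muscle-rich and 9 muscle-poor libraries. The block of muscle-rich GRDim water libraries is blue for 9 genes and pale for Cdkn1a, and the muscle-poor block of the same condition is less even.

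Between the classes, as a description over 12 and 9 libraries, 2 of the 10 members did not overlap, near the 24.6% of all genes that did not. Cdkn1a ranged from 177.8 to 248.3 CPM in muscle-rich and from 271.4 to 379.5 CPM in muscle-poor libraries. Pdk4 ranged from 1.716 to 6.778 CPM in muscle-rich and from 0.1543 to 0.8537 CPM in muscle-poor libraries. The other 8 overlapped, Sgk1 with 62.31 to 368.8 CPM against 75.61 to 489.9 CPM. Over the 12 muscle-rich libraries, which share the conditions, all 36 pairs among the 9 members other than Cdkn1a had a positive Pearson correlation of log2 CPM, with a median of 0.66 and a range of 0.18 to 0.86. Cdkn1a correlated positively with 3 of these 9 (median -0.18). The genes most like Tsc22d3 over these libraries, of 14399 compared, were Agr3 (r = 0.949), Lrat (0.943), Il5ra (0.94), Gm17491 (0.932) and BC035947 (0.929), and those most like Fkbp5 included Trip10 (0.896), Zfyve16 (0.89), Hoxa5 (0.889) and Mcl1 (0.88).

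Other glucocorticoid-induced genes, a list of 34 of which 31 were tested in the muscle-rich libraries, did not share one direction. For genotype on water 5 of the 31 were higher and 9 lower in GRDim mice, where 19.7% of all genes were higher and 18.9% lower, with a median of -0.13 against -0.003 over all genes. Slc9a3, the sodium-proton exchanger of the brush border, rose from 12.12 to 42.78 CPM (+1.83 ± 0.16, adjusted p = 5.04e-06). Cebpd, a transcription factor (+0.96 ± 0.13, adjusted p = 6.2e-05), and Tnfaip3, an inhibitor of NF-kB (+0.85 ± 0.10, adjusted p = 9.22e-06), were also higher. Angptl4, a lipoprotein lipase inhibitor, fell from 70.97 to 24.16 CPM (-1.54 ± 0.32, adjusted p = 0.00564), Mertk, a receptor for apoptotic cells, from 98.27 to 40.02 CPM (-1.29 ± 0.13, adjusted p = 1.93e-05), and Hif3a from 1.476 to 0.7092 CPM (-1.04 ± 0.35, adjusted p = 0.0277). With zinc in GRDim mice 3 of the 31 rose and 2 fell, where 4.46% of all genes rose and 3.24% fell. Mertk (+0.50 ± 0.13, adjusted p = 0.0392), Rgs2 (+0.38 ± 0.09, adjusted p = 0.024) and Foxo3 (+0.31 ± 0.08, adjusted p = 0.0282) were higher, and Slc9a3 (-0.64 ± 0.15, adjusted p = 0.0239) and Tnfaip3 (-0.50 ± 0.09, adjusted p = 0.00573) lower. Each of these 5 moved opposite to its genotype difference on water, in contrasts that share the GRDim water libraries.

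**Figure D4:**
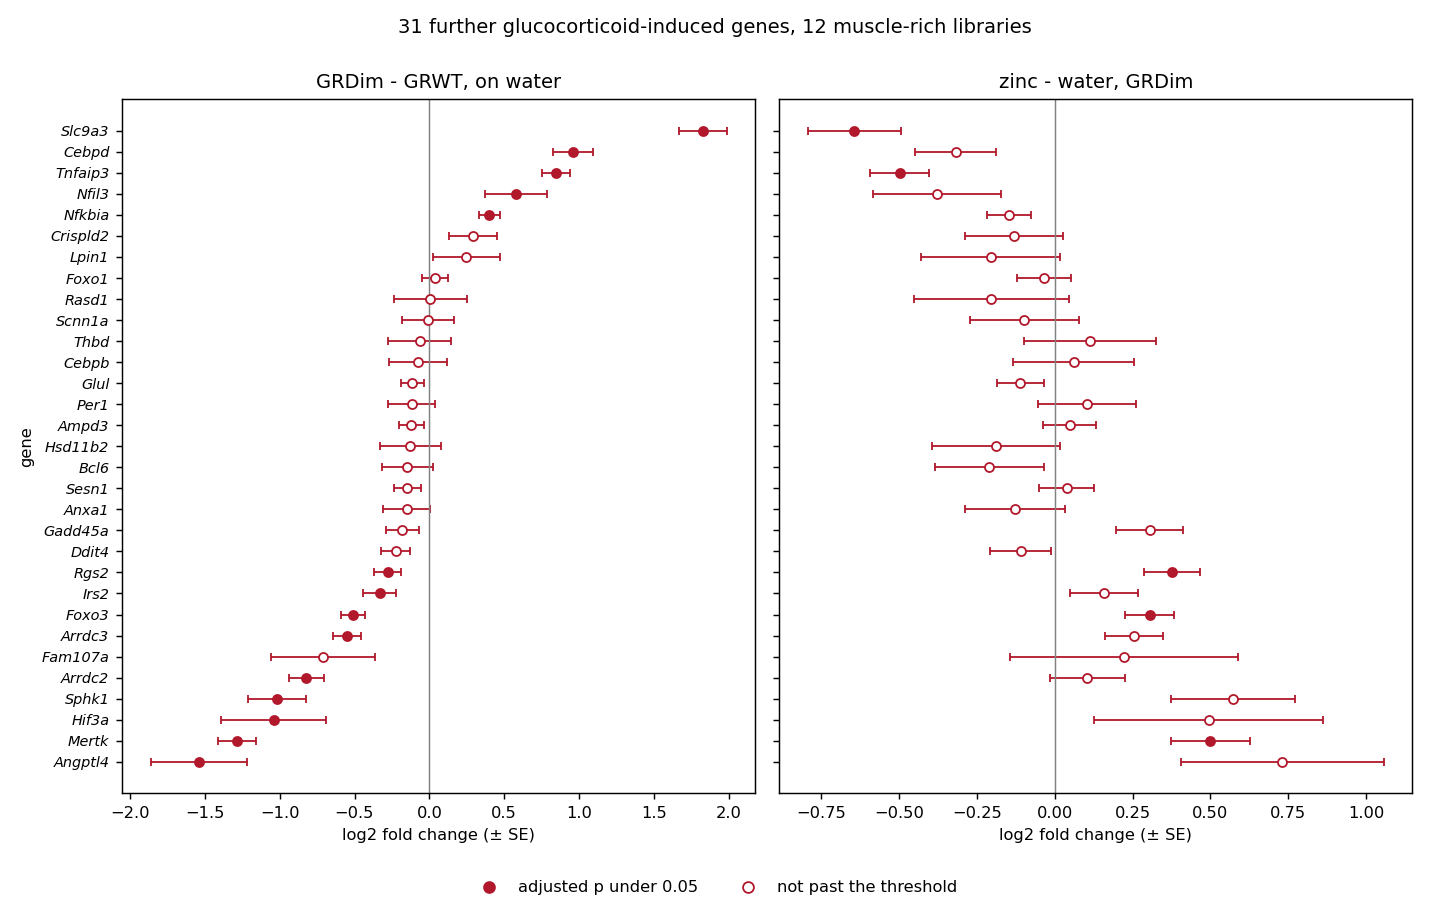
Log2 fold changes (horizontal axes, ± SE, each panel with its own scale) of the 31 further glucocorticoid-induced genes in the 12 muscle-rich libraries, ordered by genotype on water on the left, with zinc in GRDim mice on the right, filled where the adjusted p was under 0.05. On the left 14 points are filled, from Angptl4 at -1.54 to Slc9a3 at +1.83, and on the right 5 are filled.

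On zinc water 3 of the 31 were higher in GRDim mice (Slc9a3 +1.32 ± 0.16, adjusted p = 0.000226, with Cebpd and Tnfaip3) and 4 lower, among them Arrdc2 (-0.79 ± 0.12, adjusted p = 0.000331), Sphk1 (-0.75 ± 0.19, adjusted p = 0.0112) and Mertk (-0.56 ± 0.12, adjusted p = 0.0105). These counts lie near the 9.81% of all genes called higher and 9% called lower. In muscle-poor libraries edgeR called 0 of the 29 tested in any comparison with 10 libraries. An unadjusted p under 0.05 was found for 6 with zinc in GRWT, 2 with zinc in GRDim, 3 for genotype on water, 12 for genotype on zinc and 2 for the interaction, beside 17.1%, 7.89%, 5.63%, 22.9% and 4.66% of all genes. With 9, zinc in GRDim mice raised 4 of 29, including Angptl4 (from 22.51 to 60.51 CPM, +1.44 ± 0.20, adjusted p = 0.00869), the clock gene Per1 (+0.91 ± 0.12, adjusted p = 0.0016) and Sphk1 (+0.75 ± 0.16, adjusted p = 0.0175), where 3.03% of all genes were called higher. With the same 9, genotype on water gave 1 higher (Nfil3, +0.73 ± 0.18, adjusted p = 0.0438) and 2 lower, Angptl4 (-1.17 ± 0.22, adjusted p = 0.0322) and Mertk (-0.67 ± 0.09, adjusted p = 0.00182), where 0.886% of all genes were called higher and 2.27% lower. Angptl4 and Mertk were therefore called lower in GRDim mice on water in both classes, in the muscle-poor one only without GRWT zinc ileum replicate 3.

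The transcript of the receptor itself was lower in muscle-rich GRDim mice on water. Nr3c1, which encodes GR, averaged 277.2 ± 7.525 CPM in GRWT mice on water, 286.8 ± 30.72 CPM in GRWT mice on zinc, 215 ± 3.406 CPM in GRDim mice on water and 272.4 ± 22.71 CPM in GRDim mice on zinc (SD, n = 3 each). The log2 difference was -0.36 ± 0.07 for genotype on water (adjusted p = 0.00135) and +0.33 ± 0.07 for zinc in GRDim mice (adjusted p = 0.0139). Of 12 genes for receptors and cofactors, 2 were higher and 3 lower for genotype on water, and these 5 of 12 lie near the 38.7% of all genes called in either direction. Next to Nr3c1 the co-repressor gene Ncor1 (-0.37 ± 0.06, adjusted p = 0.000249) and the mineralocorticoid receptor gene Nr3c2 (-0.41 ± 0.11, adjusted p = 0.00842) were lower. The coactivator gene Ncoa1 (+0.44 ± 0.05, adjusted p = 2.14e-05) and the co-chaperone gene Ptges3 (+0.18 ± 0.07, adjusted p = 0.047) were higher. Zinc in GRDim mice gave 2 higher, Nr3c1 and Ncoa2, and 1 lower, Ncoa1, where 4.46% of all genes were higher and 3.24% lower.

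Lists that share members or neighbours with the 10 genes were counted for genotype on water in the muscle-rich libraries, against the same 19.7% of all genes higher and 18.9% lower. Of 10 immediate early genes, the class to which Dusp1 and Zfp36 belong, 0 were higher and 4 lower, including Fosb (-0.98 ± 0.17, adjusted p = 0.000322) and Btg2 (-0.66 ± 0.06, adjusted p = 1.9e-06). Of 9 targets of p53, which also induces Cdkn1a, 2 were higher (Trp53inp1, +0.43 ± 0.08, adjusted p = 0.000688, and Bax) and 2 lower (Sesn2 and Zmat3). Of 8 tested genes of fasting and PPAR alpha, as Pdk4 is, 0 were higher and 5 lower, including Ehhadh, which encodes an enzyme of peroxisomal fatty acid oxidation, from 104.2 to 76.99 CPM (-0.43 ± 0.10, adjusted p = 0.00507). Of 11 clock genes, Hlf was higher and Npas2 (-1.01 ± 0.10, adjusted p = 7.96e-06) and Per2 (-1.001 ± 0.15, adjusted p = 0.000251) lower. With zinc in GRDim mice Btg2 (+0.39 ± 0.06, adjusted p = 0.00215) and Npas2 (+0.54 ± 0.10, adjusted p = 0.00791) were the only genes of these 4 lists to pass. Per2 was the only gene of any of these lists called for zinc in GRWT mice (-0.97 ± 0.15, adjusted p = 0.0182) and for the interaction (+1.22 ± 0.22, adjusted p = 0.045).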

How the data were processed

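Stranded single-end libraries were made by the authors from RNA of the small intestine. They trimmed the reads, mapped them to mm10 with HISAT2 2.0.4 and counted them per gene with featureCounts without multimapping reads. The deposited table holds raw counts per Ensembl gene in 22 columns, with no normalization. The annotation release and strand setting are not given in the sources used here. Names and exon lengths were taken from GENCODE on GRCm38 and promoters from RefSeq (GRCm38.p6).

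Counts were analysed with edgeR 4.0.16 in R 4.3.3: TMM normalization, filterByExpr over the 4 conditions (minimum count 10, minimum total 15), and robust quasi-likelihood F tests with Benjamini-Hochberg adjustment over all genes tested, separately in libraries above and below 100 CPM of Myh11. SEs were derived from the F statistic. DESeq2 1.42.0, other filters, covariates and left-out libraries were alternatives, and scripts were tested on simulated data. Columns of 2 GRDim water ileum libraries carry 1 name, which leaves them without a number. The members, the gene lists and the tests were chosen with earlier results of these data known. All 10 members were named, and from each further list up to 3 genes per direction with the largest changes among those called and at a mean of 1 CPM or more. Of the genes these rules name, 2 are not reported here.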

Additional observations from a re-analysis of the deposited data

Results flagged for a closer look

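In each condition the 10 members were checked for a library far from the others, with muscle-rich and muscle-poor libraries together. Chance alone flags about 1 in 20 such checks in groups of 1 class. Here the classes were mixed and the same libraries recur for all 10 genes, so that rate does not apply. In 40 checks 6 values stood out. Of these, 4 came from GRWT zinc ileum replicate 3, among 5 libraries of GRWT mice on zinc: Tsc22d3 at 142.4 CPM against 39.37 to 65.68 CPM in the others, Sgk1 at 900.8 CPM against 237.5 to 394 CPM, Zfp36 at 378.1 CPM against 108.4 to 147.7 CPM, and Pdk4 at 96.61 CPM against 0.3013 to 6.778 CPM. The other 2 came from the 6 libraries of GRDim mice on water: Klf9 at 29.49 CPM in ileum replicate 1 against 36.7 to 38.81 CPM, and Errfi1 at 84.04 CPM in an unnumbered ileum library against 52.81 to 63.38 CPM. The effect of genotype on water differed between muscle-rich and muscle-poor libraries for Tsc22d3, with a difference of -0.632 on the log2 scale (edgeR, adjusted p = 0.00795 over 21 libraries). That difference was -0.605 with the tissue label as covariate (adjusted p = 0.0146), and the adjusted p was 0.00197 with DESeq2, both over the same 21 libraries. With GRWT zinc ileum replicate 3 included it did not pass, as given above.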

How the results depend on the processing

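No member called in the main edgeR fit of the muscle-rich libraries reversed its direction under any other setting. Members called only under another setting were not followed in this way. In this section counts of members past the threshold stand without the share of all genes called under the same setting. They show how calls depend on the processing and do not compare the members with other genes. The counts moved as follows. With DESeq2 they were 1 for zinc in GRWT mice and 1 for the interaction (muscle-rich), and 3 for zinc in GRWT, 1 for zinc in GRDim and 3 for genotype on zinc (muscle-poor). Without a filter on low counts 1 member passed for zinc in GRWT and 2 for genotype on zinc, and with a stricter filter 2 for genotype on zinc (all muscle-rich). Requiring a log2 change beyond 0.8 left 1 for zinc in GRDim and 3 for genotype on water (muscle-rich).

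In 1 fit of all 22 libraries by condition and muscle class, the muscle-rich counts were 0 for zinc in GRDim, 5 for genotype on water and 0 for genotype on zinc, and the muscle-poor counts were 5 for zinc in GRWT, 1 for zinc in GRDim and 5 for genotype on zinc. With the muscle class as covariate, alone or with the tissue label, they were 1 for zinc in GRDim, 5 for genotype on water and 2 for genotype on zinc. Without GRWT zinc ileum replicate 3 that last fit gave 3, 7 and 1. With the tissue label alone as covariate over 22 libraries no member passed (0 in each), and with it within the muscle-rich libraries 1 passed for zinc in GRDim, 0 for genotype on zinc and 9 for genotype on water. The cause was not tested.

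Same-numbered libraries did not deviate together (25 pairs, median r = -0.007, 1 over 0.1), beside 148 differently numbered pairs (median r = 0.005, 26 over 0.1). This gave no sign that the numbers pair the libraries, but groups this small cannot exclude it. With the replicate number as a block over 20 numbered libraries, the muscle-rich counts were 0 for zinc in GRDim, 2 for genotype on water (Sgk1, -2.09, adjusted p = 0.017, and Errfi1, -0.66, adjusted p = 0.0478) and 0 for genotype on zinc.

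Leaving out 1 library at a time, the muscle-rich counts ranged from 0 to 1 for zinc in GRWT, 1 to 4 for zinc in GRDim, 6 to 9 for genotype on water, 0 to 4 for genotype on zinc and 0 to 1 for the interaction. The muscle-poor counts ranged from 0 to 8 for zinc in GRWT, 0 to 1 for zinc in GRDim, 0 to 0 (every omission) for genotype on water, 0 to 6 for genotype on zinc and 0 to 5 for the interaction, with the highest reached without GRWT zinc ileum replicate 2, which leaves replicate 3 alone in its group. Depth limits Zbtb16 and Pdk4 in muscle-poor libraries, where 2 and 4 of 10 libraries were at or under 3 counts.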
